A study of Mus musculus with 3 samples.

Results

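Gene expression of untreated, cultured mouse biliary epithelial cells (BECs, or cholangiocytes) was described from 1 microarray, the control of a series of 3. The members were all gene symbols with a probe on that array, ranked by the level in control BECs. Where a symbol had several probes, the one with the highest level stood for it. Of 19321 symbols 17423 had a valid level, and 1898 did not. No ratio to the other arrays was taken.

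Control BECs were grown in DMEM/F-12 supplemented with insulin, EGF, forskolin, antibiotics and 10% Nu-serum. The BECs of the other 2 arrays were depleted of serum or exposed to 200 μM glycochenodeoxycholic acid (GCDC), a conjugated bile acid, for 4 to 7 days by the labels, while 7 days are named for the array comparison. All 3 held intrahepatic BECs purified from female BALB/c mice of 8 weeks and kept at a density of less than 80%, with RNA pooled from 2 independent experiments per array. There was 1 array per condition, so no value has an error between samples and no test was made.

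Cholangiocytes line the bile ducts as a simple epithelium. They carry the keratins of simple epithelia together with ductal keratins that hepatocytes lack, are sealed by tight junctions, and bear a primary cilium. Under secretin and cAMP they add water and bicarbonate to bile. EGF drives growth of epithelial cells, and forskolin raises cAMP by activating adenylyl cyclase.

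A level here is the intensity of a probe above the blank spots of the array, scaled so that the median over valid gene probes is 25. A probe was valid where its intensity was over 2 SD higher than the mean of the blanks, which is a level of 1 and held for 20947 of 23473 gene probes (89.2%). Levels of valid probes ran up to 30052, and the median over all symbols was 21.0, with not valid symbols ranked lowest. Brightness also depends on the probe, so that an order of levels is an order of signals and only roughly one of transcripts. A list median also depends on the correction of the background, and with normexp (offset of 50) it was over 1.5 times higher in 24 lists and over 1.5 times lower in 20. Among 1099 symbols with several valid probes, the highest was 3.29 times the lowest in the median, and more than 10 times in 256 of them (23.3%).

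Valid signals were also frequent among genes with no known use in bile ducts. Olfactory receptors, which are restricted to sensory neurons of the nose and a few other cells, were valid in 673 of 988 symbols (68.1%), against 90.2% over all symbols. Vomeronasal receptors were valid in 94 of 159 and taste receptors in 15 of 36. The olfactory receptors had a median level of 2.22, a 95th percentile of 33.1 and a maximum of 261, at *Olfr151*. Levels up to 33.1 thus overlap those of nearly all of these receptors. Over all symbols 43.2% exceeded 33.1, and 12.8% exceeded 250, which is 10 times the array median. These shares are the background for the counts of each gene group that follow.

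**Figure D1:**
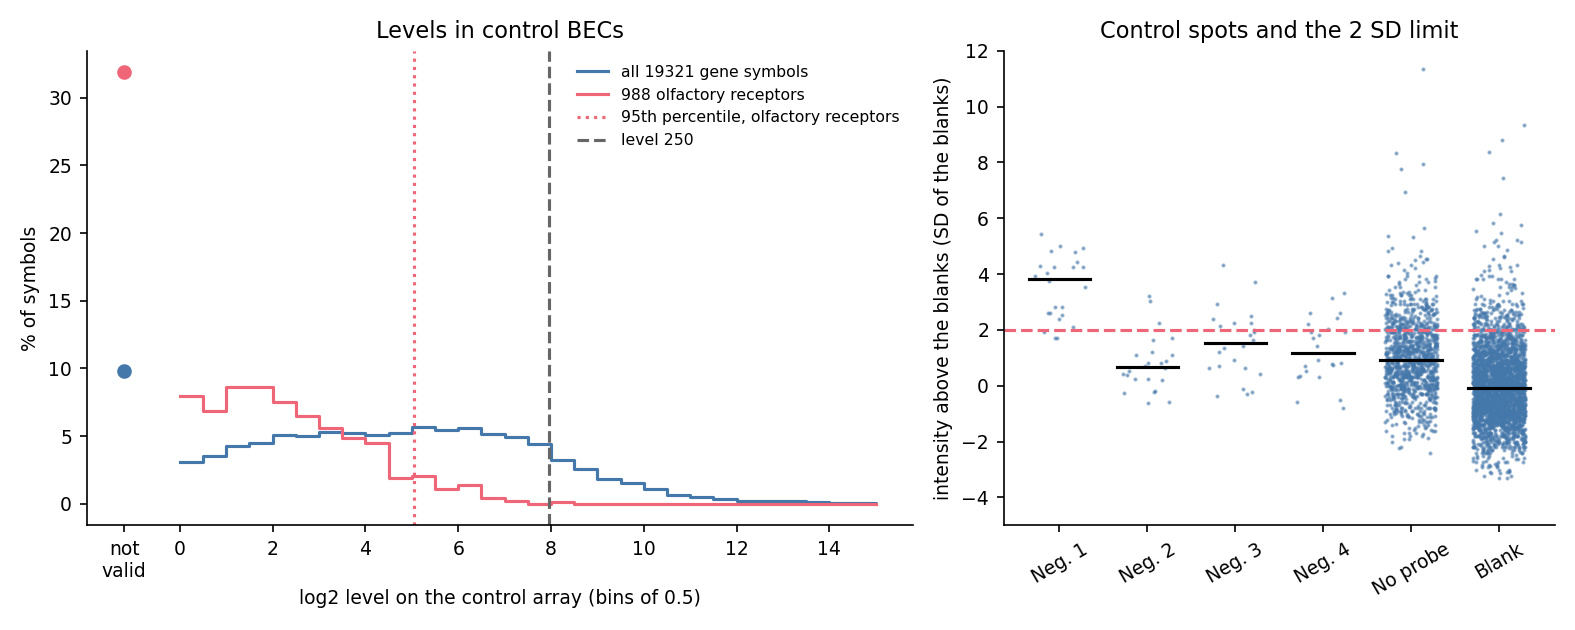
Left, share of symbols (%) by log2 level on the control array in bins of 0.5, for all 19321 symbols and for 988 olfactory receptors, with not valid symbols as points at the left edge. Right, intensity of single control spots in SD of the blanks above their mean, with medians as bars and the limit of 2 SD dashed, and 5 spots lie above the axis. Of the olfactory receptors 1 passes level 250, against 12.8% of all symbols.

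Genes of a ductal epithelium were among the brightest. *Krt7* and *Krt19*, the keratins that set ducts apart from hepatocytes, had levels of 14723 and 13440, at ranks 18 and 23 of all symbols. *Epcam*, an adhesion molecule of epithelial and ductal cells, had a level of 1760.2 at rank 369. *Sox9*, the transcription factor of ductal and progenitor cells, had a level of 16.7. Of the 4 markers measured, *Sox9* was the one below the median of all symbols and inside the range of the olfactory receptors. *Spp1* is not analysed here. Each of these 4 genes had 1 probe.

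A wider list of genes of biliary and simple epithelia had 37 members on the array. All 37 were valid, 31 exceeded 33.1, 25 exceeded 250, and their median level was 445. The brightest were the keratins *Krt18* and *Krt8*, the secreted chaperone clusterin (*Clu*, 19354), galectin-3 (*Lgals3*, 12076) and *Wfdc2* (9657), a secreted protein of mucosal glands. The tetraspanin *Tspan8* followed at 6943, and the membrane mucin *Muc1* had 1609.

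**Figure D2:**
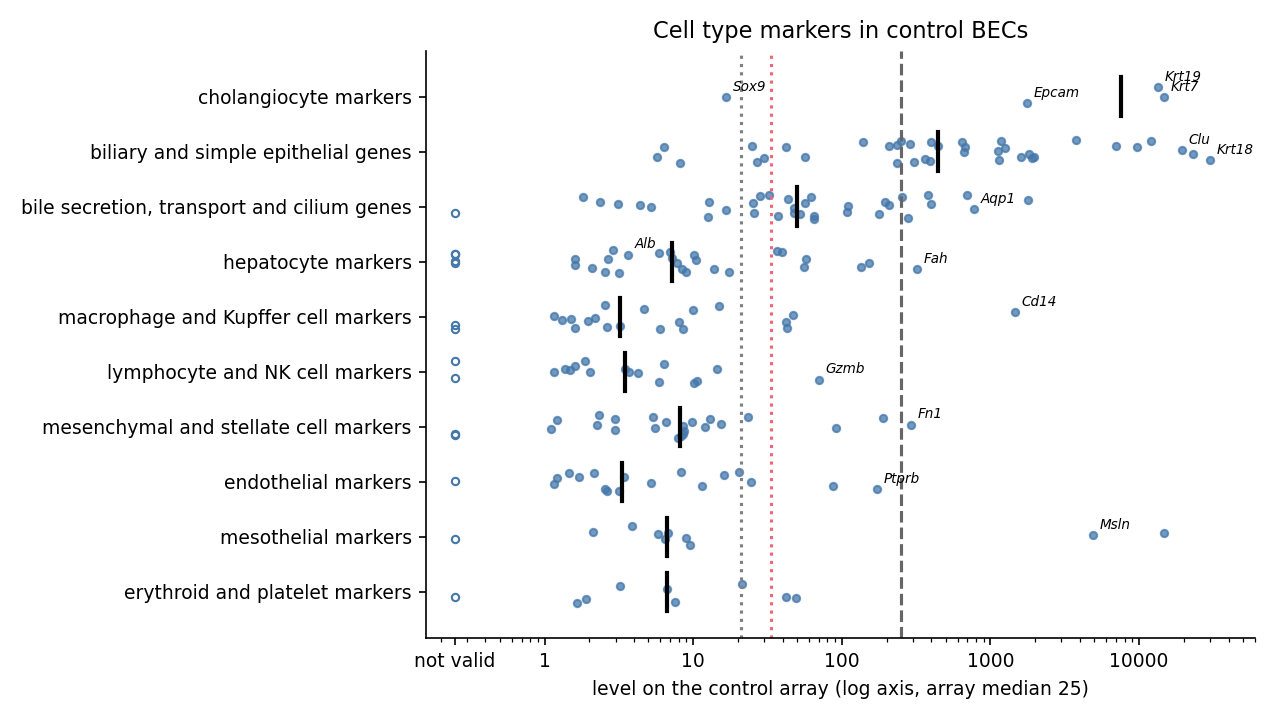
Levels in control BECs (log axis) of the members of 10 marker lists, 1 point per symbol, with open points for not valid members and bars for list medians. Lines mark the median of all symbols (21.0), the 95th percentile of the olfactory receptors (33.1) and 250. Most cholangiocyte and simple epithelial genes lie right of 250, and the medians of the other cell types lie below 21.0.

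Markers of other liver cells were mostly near the background. In a bulk culture, fewer cells of a type and less RNA per cell cannot be told apart. Of 29 hepatocyte markers 25 were valid, 7 exceeded 33.1 and 1 exceeded 250, with a median of 7.22. Albumin (*Alb*) had a level of 3.66, apolipoprotein A-I (*Apoa1*) 13.8, transthyretin (*Ttr*) 36.9 and the drug-metabolising *Cyp2e1* 2.57. The brightest were *Fah*, the last enzyme of tyrosine breakdown (320.1), *Ass1* of the urea cycle (152), and *Hnf4a*, a transcription factor of hepatocytes and other endodermal epithelia (135). *Fgg*, *Tat*, *Cyp8b1* and *Asgr1* were not valid.

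Among 21 markers of macrophages and Kupffer cells, 19 were valid, 4 exceeded 33.1 and the median was 3.23. *Adgre1*, which encodes F4/80, was not valid, nor was *C1qb*. The leukocyte gene *Ptprc* had a level of 2.62, the Kupffer cell lectin *Clec4f* 6.01, the complement gene *C1qa* 3.23 and the receptor *Csf1r* 42.1. The 1 bright member was *Cd14*, the co-receptor for lipopolysaccharide, at 1469 and rank 431. The myeloid genes *Aif1* and *Cd68* had 47 and 42.5.

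Lymphocyte and NK cell markers had a median of 3.48 over 17 symbols, of which 1 exceeded 33.1. This was granzyme B (*Gzmb*) at 69.9, while the T cell gene *Cd3e* had 1.36, *Cd8a* 6.39 and the B cell gene *Ms4a1* 1.6. *Nkg7* and *Klrb1c* were not valid. Endothelial markers had a median of 3.30 over 18 symbols. *Pecam1*, *Cdh5*, *Stab2* and *Vwf*, which define blood vessel and sinusoidal endothelium, had levels of 1.16, 1.46, 1.22 and 3.18, *Kdr* had 20.4, and *Tek* was not valid. The phosphatase *Ptprb* and the secreted *Egfl7* were higher, at 173 and 87.

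Mesenchymal and stellate cell markers had a median of 8.11 over 24 symbols, of which 3 exceeded 33.1. The fibrillar collagens *Col1a1* and *Col3a1* had levels of 6.55 and 7.89, smooth muscle actin (*Acta2*) 8.73, *Pdgfrb* 23.3 and vimentin (*Vim*) 8.59. *Dcn* and *Postn* were not valid. The 3 higher members were fibronectin (*Fn1*, 293), *Col5a1* (189) and the transcription factor *Twist1* (90.8).

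The list of mesothelial markers held *Krt7*, which ducts share, and *Msln*. Mesothelin (*Msln*), a surface protein of mesothelium and of several carcinomas, had a level of 4919.6 at rank 131. No other member exceeded 33.1. *Wt1*, a transcription factor of mesothelium, had 6.79, *Muc16* 6.5 and *Upk3b* 3.87, *Calb2* and *Nkain4* had 9.58 and 9, and *Lrrn4* was not valid. Of 9 erythroid and platelet markers none exceeded 250, with *Hbb-bs* at 49.1, *Hbb-bt* at 1.66, *Alas2* at 21.2, *Klf1* at 7.5, and *Pf4* not valid. How much RNA of other cells the culture held was not tested.

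Genes of organs outside the liver served as a further background. Neuronal, striated muscle, sperm and oocyte, and retina and lens genes had medians of 4.87, 3.14, 4.19 and 2.69, and no member exceeded 250. The highest of each were the vesicular GABA transporter *Slc32a1* (44.6), fast troponin I (*Tnni2*, 158), the germ cell helicase *Ddx4* (152) and the lens channel *Mip* (49.1). Of 6 Y-linked genes 5 were valid, with the highest *Uba1y* and *Kdm5d* at 46.7 and 33.3, and *Sry* was not valid. *Xist*, the RNA that coats the inactive X chromosome of female cells, had levels of 11.4 and 5.43 on its 2 probes. Both levels lay below 33.1, while *Uba1y* and *Kdm5d* exceeded it, although the cells were from female mice. The sex of the cells therefore cannot be read from these levels, and the cause was not tested.

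The keratins divided into 4 very bright genes and the rest. Keratins are the intermediate filaments of epithelia, built from pairs of a type I and a type II chain. The type I keratins *Krt18* and *Krt19* had levels of 30052 and 13440, and the type II keratins *Krt8* and *Krt7* had 22876 and 14723. *Krt18* was the brightest of all symbols and *Krt8* was at rank 5. The next keratins were *Krt23* at 723 and *Krt20* at 667, which is known from gut and bladder epithelium. Of 44 keratins 39 were valid, 12 exceeded 33.1 and 6 exceeded 250. *Krt17*, *Krt222*, *Krt28*, *Krt35* and *Krt88* were not valid. Keratins of stratified epithelia had lower levels, with *Krt13* at 99.6, *Krt1* at 33.9, *Krt14* at 5.93, *Krt10* at 2.67 and *Krt5* at 2.12.

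**Figure D3:**
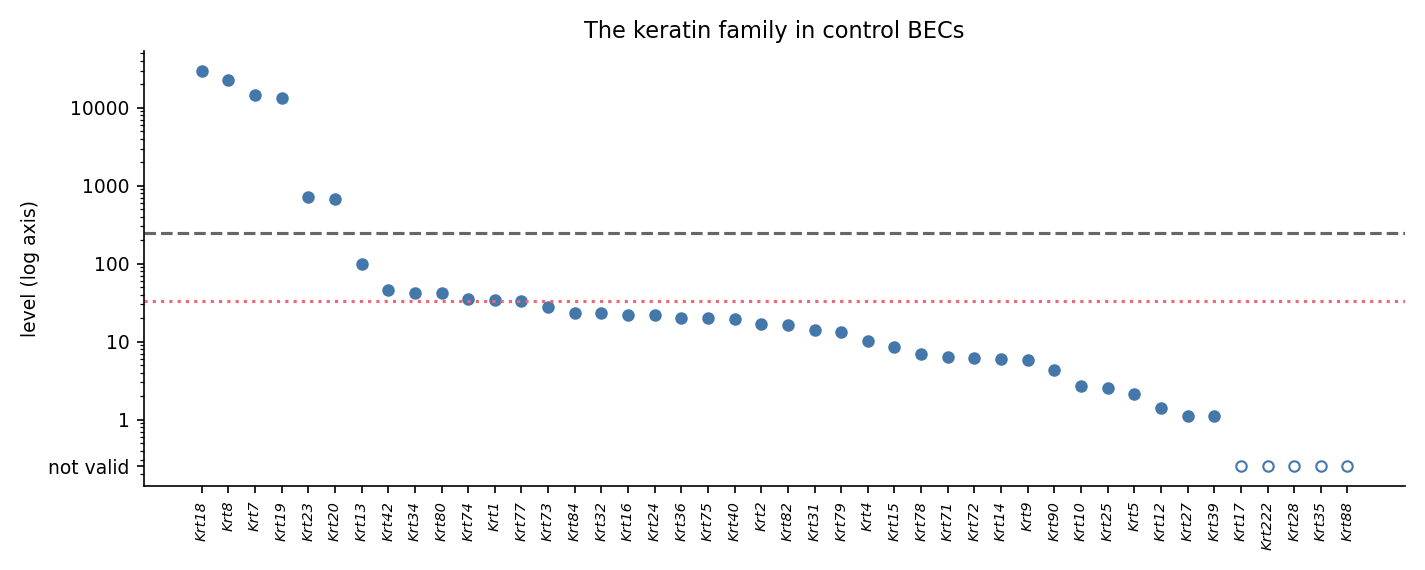
Levels of the 44 keratins on the control array (log axis), in order of level, with open points for not valid probes. The dotted and dashed lines mark 33.1 and 250. The 4 simple epithelial keratins lie between 13440 and 30052, and *Krt23* follows at 723.

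Promoter sequences of 5 of the 18 brightest genes are shown to set the bright keratins beside ubiquitous genes and to compare the place of the TATA motif. Each run covers 100 bases before to 30 bases after the annotated start, from RefSeq for GRCm38.p6, and TATAA is in capitals wherever it occurs. *Krt18* lies at chr15:102028116-102028245 on the plus strand, *Krt8* at chr15:102004313-102004442 on the minus strand and *Krt7* at chr15:101412303-101412432 on the plus strand. The peptidyl-prolyl isomerase gene *Ppia* lies at chr11:6415767-6415896 on the plus strand, and the elongation factor gene *Eef1a1* at chr9:78481695-78481824 on the minus strand.
Krt18: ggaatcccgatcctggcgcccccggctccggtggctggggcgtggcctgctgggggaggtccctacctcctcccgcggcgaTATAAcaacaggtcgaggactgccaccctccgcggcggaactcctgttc
Krt8: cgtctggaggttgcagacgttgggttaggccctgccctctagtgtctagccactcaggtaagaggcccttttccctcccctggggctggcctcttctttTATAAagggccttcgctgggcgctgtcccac
Krt7: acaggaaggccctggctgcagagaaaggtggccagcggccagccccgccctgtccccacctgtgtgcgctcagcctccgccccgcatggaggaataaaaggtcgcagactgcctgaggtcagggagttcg
Ppia: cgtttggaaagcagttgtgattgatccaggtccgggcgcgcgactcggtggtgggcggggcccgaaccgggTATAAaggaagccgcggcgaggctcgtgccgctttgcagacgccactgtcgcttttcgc
Eef1a1: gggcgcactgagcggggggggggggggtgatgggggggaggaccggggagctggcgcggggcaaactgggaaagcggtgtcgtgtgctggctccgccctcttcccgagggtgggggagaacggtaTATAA
The first base of TATAA stands at -19 in *Krt18*, at -1 in *Krt8*, at -29 in *Ppia* and at 26 in *Eef1a1*, counted from the annotated start, and *Krt7* has no match. These places depend on the annotated start. Whether transcripts of these cells begin there was not tested, so the places cannot be compared as distances from a start in use. *Krt19* is named only.

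Motifs were counted in promoters of protein-coding genes, over 250 bases before to 50 after the start unless another window is given. The GC box GGGCGG, on either strand, was present in 64.3% of the 319 promoters among the 500 brightest symbols, against 50.9% of 14609 promoters of all protein-coding genes on the array. It was present in 29.3% of the 3967 promoters of genes not valid or with a level under 5. For CCAAT on either strand the shares were 41.7%, 38.4% and 37.4%, and for TATAAA on either strand 13.5%, 12.3% and 19.5%. TATAA on the gene's strand from 40 bases before to 10 after the start was in 9.09% of the brightest, 5.40% of all and 8.75% of the lowest, and the first of these shares was 15.6% over the 200 brightest symbols and 6.12% over the 1000 brightest. A start with C followed by 5 pyrimidines, as in terminal oligopyrimidine messages, was in 4.39% of the brightest genes and 1.59% of all, and in 11 of 50 promoters of ribosomal proteins. The motifs can overlap one another, as TATAA lies within TATAAA, and a match of letters is not a site in use. The counts of TATAA near the start and of the pyrimidine start also depend on where the start is annotated, which was not tested.

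**Figure D4:**
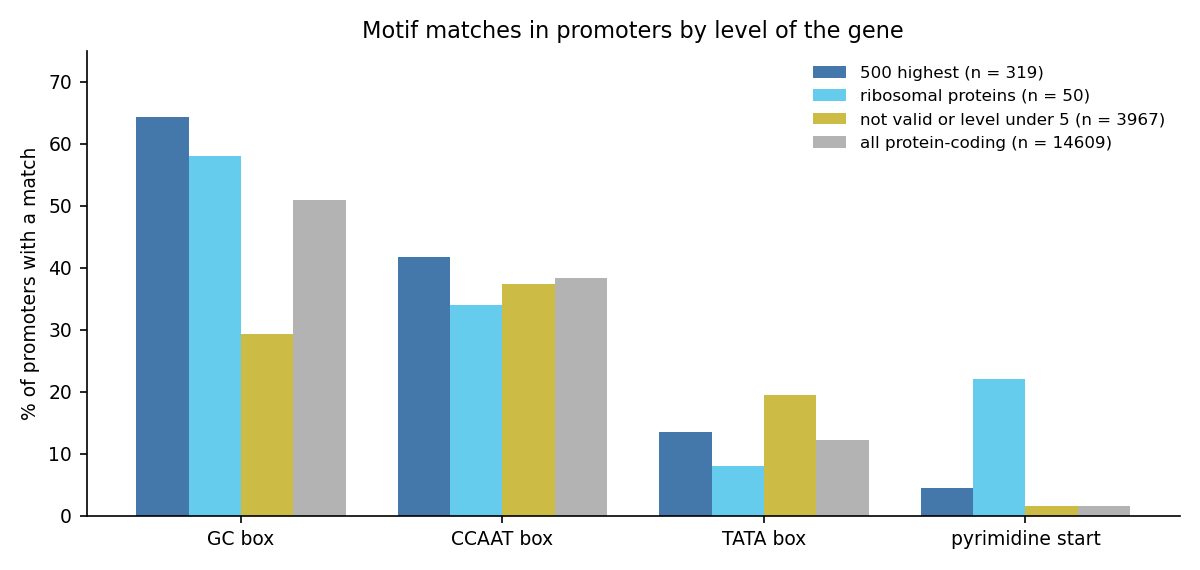
Share of promoters (%) with a match of each motif among protein-coding genes of the 500 brightest symbols, cytosolic ribosomal proteins, genes not valid or with a level under 5, and all protein-coding genes on the array. The GC box is most frequent in the 500 brightest (64.3%) and the pyrimidine start in ribosomal proteins (22%).

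Genes of cell junctions were bright in part. Among 30 claudins and tight junction genes, 27 were valid, 15 exceeded 33.1 and 9 exceeded 250. *Cldn6*, a claudin best known from embryonic epithelia, was the brightest at 1907, before the junctional adhesion molecule *F11r* (1373), *Cldn3* (1148), *Cldn4* (1116) and the pore-forming *Cldn2* (647). *Cldn10*, *Cldn5* and *Cldn8* were not valid, and *Cldn1* was at 28.1. Of 22 cadherin, catenin and desmosome genes 8 exceeded 250, led by alpha-catenin (*Ctnna1*, 4585), beta-catenin (*Ctnnb1*, 3611), *Perp* (1906), E-cadherin (*Cdh1*, 1245) and desmoplakin (*Dsp*, 394). *Dsp* had 12.6 on its other probe. N-cadherin (*Cdh2*) had a level of 6.87, and *Dsc3* was not valid.

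By list median, genes of contacts with the matrix were dimmer than those of cell junctions. Integrins had a median of 17.8 and laminin and basement membrane genes 25.8, beside 21.0 for all symbols. The tight junction list had 32.5 and the cadherin list 141. Above 33.1 were 40% of integrins and 45.5% of laminin and basement membrane genes, beside 43.2% of all symbols. Above 250 were 6.67% and 13.6%, beside 12.8%. Of 30 integrin genes 2 exceeded 250, the common beta chain *Itgb1* at 1119 and *Itga3* at 282, followed by *Itgb6*, *Itgav* and *Itgb4* between 236 and 247. Of 22 laminin and basement membrane genes 3 exceeded 250, *Lamb2* (1145), the collagen IV chain *Col4a2* (652) and the laminin-332 chain *Lamb3* (646). *Col18a1* and *Col4a1* had 175 and 163.

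Annexins and S100 proteins, which bind calcium and membranes, had a median of 222 over 28 genes, and 13 exceeded 250. *S100a6* (19229, rank 8) and *Anxa1* (15467, rank 15) were followed by *S100a11* (9608), *Anxa3* (8502) and *Anxa2* (6205). *S100a9*, a gene of neutrophils, was not valid. Most genes of the cornified envelope, the shell of skin cells, were near the background, with a median of 7.08 over 37 genes. *Sprr1a*, a small proline-rich protein of stressed and squamous epithelia, was the brightest at 14835 and rank 17. Involucrin (*Ivl*) had 854, *Cnfn* 521, loricrin (*Lor*) 435 and *Sprr2a2* 397. *Flg*, *Lce1a2*, *Sprr2e*, *Sprr2j-ps* and *Sprr4* were not valid. The SPRR genes have close copies, so their signals may be shared. Of 15 mucin and trefoil genes *Muc1* alone exceeded 250, and *Muc6*, *Muc20*, *Muc2* and *Muc15* lay between 34.1 and 79.3. *Muc5b* was not valid.

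Genes of bile secretion, transport and the cilium ranged widely. Of 34 measured, 33 were valid, 21 exceeded 33.1 and 7 exceeded 250, with a median of 50.1. The sodium pump subunit *Atp1b1* had the highest level at 1788, followed by the water channel *Aqp1* (776), carbonic anhydrase II (*Car2*, 697), the inositol trisphosphate receptor *Itpr3* (396) and the sodium bicarbonate cotransporter *Slc4a4* (378). The genes of the secretin response were lower. The anion exchanger *Slc4a2* had 196, the adenylyl cyclase *Adcy6* 110.2 (19.6 on its other probe), the secretin receptor *Sctr* 37.4 and the chloride channel *Cftr* 25.6. The bile acid receptor *Gpbar1* and the bile acid transporter *Slc10a2* had 52.6 and 43.1, and the cystic disease genes *Pkd1* and *Pkhd1* had 47.4 and 28.3. *Aqp8* was not valid. Thus the pump and the water channel were well above the olfactory range, whereas *Sctr* lay close to its 95th percentile and *Cftr* and *Pkhd1* below it.

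The machinery of protein synthesis supplied many of the brightest signals. Of 64 cytosolic ribosomal protein genes, 63 were valid, 47 exceeded 250 (73.4%, against 12.8% of all symbols), and the median was 5921. *Rpl41* was at rank 2 of all symbols with 26951, and *Rps2*, *Rpl32*, *Rpl23a* and *Rpl5* had 16222, 14418, 12787 and 11979. *Rpl3l*, a paralog of skeletal muscle and heart, was not valid. Of 53 translation factor genes 36 exceeded 250. *Eef1a1*, which delivers aminoacyl-tRNA to the ribosome, was at rank 3 with 26493, and *Eef1g*, *Eef1b2*, *Eef2* and *Eif5a* had 8886, 7730.3, 5969.7 and 5034. Ribosomal protein genes and *Eef1a1* have many processed pseudogenes, and signals between such copies cannot be told apart here.

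Pseudogenes made up 7 of the 40 brightest symbols and 102 of the 500 brightest (20.4%), against 475 of all 19321 (2.46%). Those among the 40 were *Gm11942* (18731), *Gm15772* (14668), *Gm3839* (14324), *Rps12-ps24* (14100.5), *Gm5239* (11669.7), *Gm13394* (11558) and *Gm15459* (11288). Whether these signals came from the pseudogenes or their parent genes was not tested. The 1 noncoding RNA among the 40 was *Snhg7*, a host of small nucleolar RNAs, at 10302.

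Mitochondrial, proteasomal and folding genes formed broad groups of high signal. Of 84 respiratory chain and ATP synthase genes 69 exceeded 250 with a median of 934, led by the ATP synthase subunit *Atp5b* (9321), the cytochrome oxidase subunits *Cox4i1* (5944) and *Cox6a1* (5416), *Atp5g3* (4763) and *Atp5d* (3561). The testis subunit *Cox8c* was not valid. *Uqcrq* was not valid either, which cannot be read as absence of its transcript, since a signal depends on the probe. All 39 proteasome subunits were valid and 33 exceeded 250, with a median of 857 and a maximum of 2071, at *Psmb5*. *Psmb1*, *Psma2*, *Psmd7* and *Psma6* lay between 1434 and 1725. All 33 chaperone genes exceeded 33.1, with *Ppia* (20198), *Hspa8* (15519), *Hsp90aa1* (7725), *Hspd1* (3675) and the chaperonin subunit *Cct2* (3632) at the top.

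**Figure D5:**
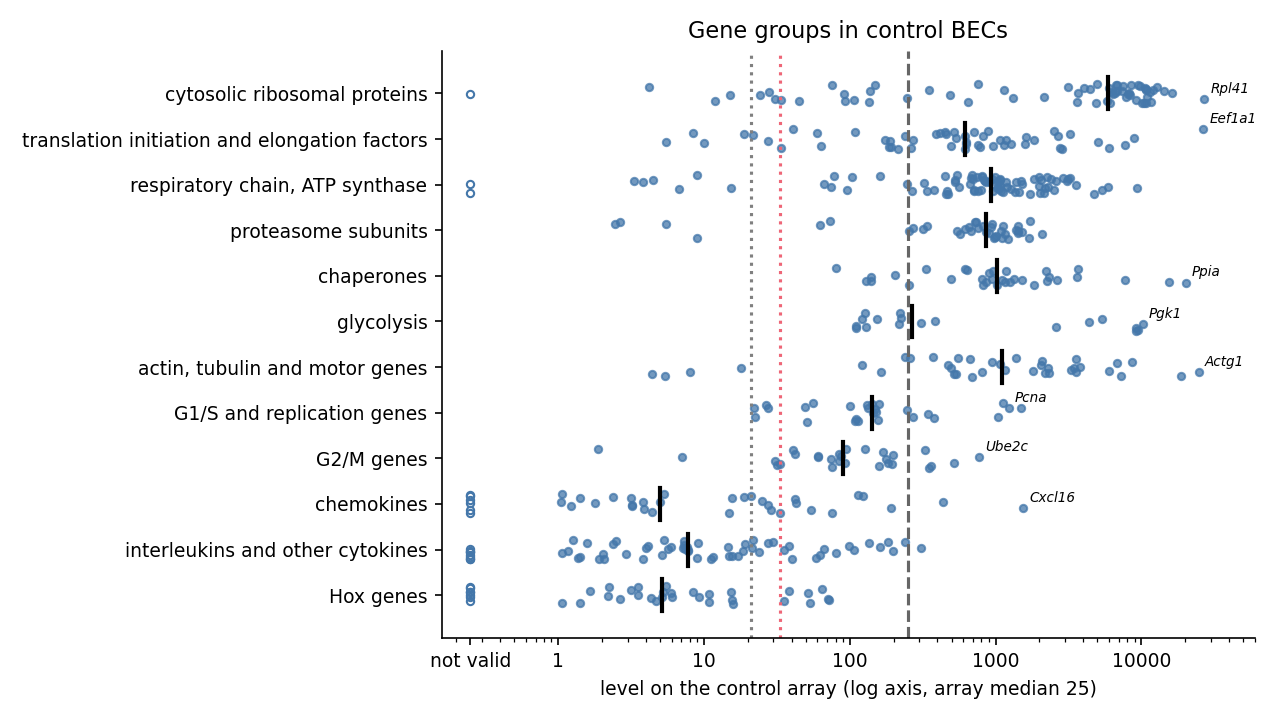
Levels in control BECs (log axis) of the members of 12 gene groups, with bars for group medians and open points for not valid members. Lines mark 21.0, 33.1 and 250. Ribosomal proteins centre at 5921, while chemokines, cytokines and Hox genes centre below 21.0.

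Of 38 genes of actin, tubulin and their motors 31 exceeded 250, with a median of 1115. Gamma actin (*Actg1*) was the brightest at 24811, and beta actin (*Actb*) had 3575. Thymosin beta 4 (*Tmsb4x*), *Tubb4b*, *Tpm1* and *Tuba1b* had 18611, 8655, 7299 and 6777. Glycolytic enzymes differed in level. *Pgk1*, *Pgam1*, *Ldha*, *Gapdh* and *Pkm* had 10248, 9442, 9194, 9171 and 5341, and *Aldoa* and *Tpi1* had 4351 and 2585. The hexokinases *Hk1* and *Hk2* and the glucose transporter *Slc2a1* lay between 217 and 225. Of 15 housekeeping genes 13 exceeded 250, and the lowest were *Tbp* at 99.2 and *Polr2a* at 23.9. Of 48 replication-dependent histone genes 19 exceeded 250, with *H3c4* (3022), *H2ac11* (2111), *H2ac18* (2091), *H2ac24* (2089) and *H3c7* (2073, 3.66 on its other probe) highest. *H1f6* of testis was not valid. These histone genes are near-identical, and their signals cannot be assigned to single copies.

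Genes of proliferation were above the background. All 27 G1/S and replication genes were valid and 23 exceeded 33.1, with a median of 143. *Cdk4* had 1489, the sliding clamp *Pcna* 1231, the cyclins *Ccnd1* and *Ccnd2* 1123 and 1044, and the ribonucleotide reductase subunit *Rrm1* 379. Of 28 G2/M genes 24 exceeded 33.1, with a median of 89.9. The ubiquitin-conjugating enzyme *Ube2c* had 776, *Cdk1* 517, *Cks1b* 361, *Cks2* 348 and *Hmmr* 327, and *Mki67*, which encodes Ki-67, had 87.1. Among 20 CDK inhibitors and p53 genes 19 exceeded 33.1. The p53 targets *Ccng1*, *Mdm2* and *Phlda3* had 2002, 871 and 513, and the retinoblastoma gene *Rb1* 1227. The inhibitors *Cdkn2b* (p15), *Cdkn1a* (p21) and *Cdkn2a* (p16 and p19Arf) had 588, 381 and 34.7.

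Among regulators of identity, 18 of 34 endoderm and biliary transcription factors exceeded 33.1 and 6 exceeded 250. *Sox4*, a relative of *Sox9* in the developing ducts, had 941, and *Sox17*, a factor of the endoderm and extrahepatic bile duct, 833. *Xbp1*, which serves secretory cells, had 502, and the epithelial factors *Klf5* and *Ehf* 374 and 252. The pioneer factor *Foxa2* of endoderm had 285. *Onecut1* and *Hhex*, which act in bile duct development, had 25 and 36.9, *Onecut2* had 141, and *Nkx2-1* of lung and thyroid was not valid. Of 37 Hox genes none exceeded 250 and the median was 5.13, with *Hoxc13*, *Hoxa11*, *Hoxa3*, *Hoxc9* and *Hoxa7* highest, between 52.1 and 71.6. Of 43 nuclear receptors 2 exceeded 250, *Pparg*, the regulator of fat storage (329.9), and the orphan receptor *Nr2f6* (328), followed by the oestrogen-related receptors *Esrra* (235) and *Esrrg* (114), and by *Nr2f2* (94.9). The bile acid receptor FXR (*Nr1h4*) had 27.4. *Nr0b1*, *Nr1i3* and *Pgr* were not valid.

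Of the EGF family and its receptors 6 of 15 exceeded 33.1 and 1 exceeded 250. This was *Errfi1*, a feedback inhibitor of the EGF receptor, at 902. The receptor *Egfr* had 183 (20.4 on its other probe), and its ligands *Hbegf* and *Ereg* had 179 and 156. *Lrig1*, another inhibitor of these receptors, had 116, and the receptor *Erbb2* 8.64. *Nrg3* was not valid. Immediate early genes and feedback regulators of ERK were brighter, with 25 of 33 above 33.1 and 11 above 250. *Ier3* and *Klf6*, early genes of growth factors and stress, had 2530.5 and 1885. *Dusp6*, which dephosphorylates ERK, had 1441, *Dusp1* 1072 and *Phlda1* 1029. The transcription factors *Myc*, *Jun* and *Fos* had 399, 132 and 96.8. Of 30 other growth factor receptors the ephrin receptor *Epha2* (421) was highest, followed by *Igf2r*, *Igf1r*, *Epha4* and *Mst1r* between 83.1 and 160.5. *Met*, the receptor for hepatocyte growth factor, had 70.2, and *Fgfr1* was not valid.

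The culture medium held forskolin. The list of 24 cAMP-responsive genes also held members of the pathway itself. Of the 24, 12 exceeded 33.1 (50%, beside 43.2% of all symbols). Only 1 exceeded 250 (4.17%, beside 12.8%), the kinase anchor *Akap12* at 623. Whether forskolin bore on these levels was not tested. The regulatory subunit of protein kinase A *Prkar1a* had 219, *Adcy6* 110.2, *Rgs2*, a brake on G proteins, 72.7, and the transcription factor *Creb1* 59.5. All 4 exceeded 33.1 on their highest probe, while among direct targets *Nr4a1* and *Sik1* had 52.7 and 55.3 and *Per1* and *Crem* 28.4 and 2.6. *Pde7b* was not valid.

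Genes of the YAP and TEAD pathway, which reads cell density and tension, had a median of 137 over 18 symbols (73.0 with the geometric mean of probes), and 6 exceeded 250. *Ankrd1*, a much used target, was at 14959 and rank 16. The targets *Ccn2* and *Ccn1* had 3456 and 947, tissue factor (*F3*) 603 and *Amotl2* 328. The coactivators *Wwtr1* (TAZ) and *Yap1* had 140.3 and 58.1, and *Tead1* 236 (15.5 on its other probe).

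Notch and Wnt genes were dimmer. Of 23 Notch genes 8 exceeded 33.1, led by *Hes6* (1578), which opposes its relative *Hes1* in neurons. *Hes1*, the classical Notch target, had 338, the coactivator *Maml1* 194, the DNA-binding partner *Rbpj* 61.9 and the inhibitor *Numb* 46.7. The ligand *Jag1*, which patterns the ducts, had 39.4 and the receptor *Notch2* 3.88, and *Dll3*, *Heyl* and *Dlk1* were not valid. Of 39 Wnt genes none exceeded 250, and the ligands *Wnt7b*, *Wnt10a*, *Wnt4* and *Wnt7a* had 225, 117, 96.9 and 67.9, with the receptor *Fzd6* at 146. *Wnt16*, *Dkk2* and *Sfrp2* were not valid. Of 27 TGF-beta genes 15 exceeded 33.1 (55.6%, beside 43.2% of all symbols), with a median of 38.4 beside 21.0. Above 250 were 3 (11.1%, beside 12.8%), the BMP target *Id2* (1524), the receptor *Tgfbr2* (584) and the shared signal carrier *Smad4* (308). *Id1* (188) and *Smad2* (179.9) were next. *Tgfbr3* and *Tgfbi* were not valid.

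Most chemokines and cytokines were near the background. Of 37 chemokines 31 were valid, 9 exceeded 33.1 and 2 exceeded 250, with a median of 4.99, or 15.5 over the valid ones. *Cxcl16*, a membrane-bound chemokine, had 1553, *Cxcl17* 433, *Ccl21d* 193, and the neutrophil attractants *Cxcl1* and *Cxcl3* 124 and 115. *Ccl20*, which attracts CCR6-positive cells, had 75.5. Of 64 symbols of interleukins and other cytokines 15 exceeded 33.1, and the alarmin *Il33* (309.6) was the 1 above 250. *Il31*, a cytokine of itch, had 238, the IL-12 chain *Il12b* 198, the inflammasome substrate *Il18* 183 and the macrophage growth factor *Csf1* 162.

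Of 41 interferon-stimulated genes 17 exceeded 33.1, a share of 41.5% beside 43.2% of all symbols. The exonuclease *Isg20* had 539, the immunity GTPase *Irgm1* 335, the ubiquitin ligase *Trim25* 322, the transcription factor *Irf1* 146 and the nucleic acid sensor *Zbp1* 103, and *Ifit1* was not valid. Of 25 MHC genes the class I chain *H2-K1* (1102), beta-2-microglobulin (*B2m*, 912), *H2-T23* (667) and *H2-Q7* (609) exceeded 250. *Tapbp* was next at 219.6, with 1.21 on its other probe. *H2-D1* had 9.3, and the class II genes *H2-Aa*, *H2-Eb1* and *Cd74* had 22.3, 6.2 and 4.42. Class I genes are polymorphic and close in sequence, so their single levels are uncertain.

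Of 72 matrix proteases and inhibitors 5 exceeded 250, the sheddases *Adam9* (1391) and *Adam10* (326), the urokinase receptor *Plaur* (877), and the inhibitors *Timp3* (486) and *Timp2* (319). *Mmp7*, a protease of ductal epithelia, had 191. Of 21 complement and acute phase genes none exceeded 250, and the highest were the complement regulators *Cd55* and *Cd59a* (184 and 179.9), the immunoglobulin transporter *Pigr* (61.6), lipocalin 2 (*Lcn2*, 28.8) and *C4b* (21.1). *C5ar1* and *Saa3* were not valid.

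Antioxidant genes were bright, with 21 of 34 above 250 and a median of 385. The ferritin chains *Fth1* and *Ftl1*, which store iron, had 15921 and 12698, peroxiredoxin 1 (*Prdx1*) 6869, *Gsto1* 4006 and *Gpx4*, which reduces lipid peroxides, 2924. Cytochrome P450 genes were near the background, with a median of 5.56 over 78 symbols. *Cyp3a13* (341) was the 1 above 250, and *Cyp20a1*, *Cyp39a1*, *Cyp1a1* and *Cyp1b1* lay between 82.5 and 178. Among 27 genes of bile acids and cholesterol 9 exceeded 250, those of lipid synthesis. The desaturase *Scd2* had 2408, and the sterol synthesis enzymes *Idi1*, *Sqle*, *Hmgcs1* and *Fdft1* 1329, 1321, 765 and 708, whereas *Cyp7a1*, the rate-limiting enzyme of bile acid synthesis, had 7.22. Of 25 stress response genes 16 exceeded 250, led by *Hspa5*, the chaperone of the endoplasmic reticulum (2657), *Atf4* (2349), and the serine and asparagine synthesis genes *Psat1* (2329), *Asns* (1264) and *Phgdh* (1213).

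The 40 brightest symbols also held *Plac8*, a small cysteine-rich protein of epithelial and immune cells, at 16700.3 and rank 11, and *Tpt1*, the translationally controlled tumour protein, at 12009.9. The remaining ribosomal genes among them, from *Rps26* (11745) to *Rps18* (10417), were *Rpl10*, *Rpl7*, *Rpl8*, *Rps28*, *Rps29* and *Rps14*. The 10 brightest symbols carried 5.88% of the summed level of all symbols, and the 100 brightest 28.1%.

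The spread between probes of 1 gene bounds how far a level can be read. Where all valid probes of a symbol exceeded 25, which held for 315 symbols, the median ratio of highest to lowest was 1.90, and 28 exceeded 10-fold. Among these 315 the largest ratios were those of *Ly6c2* (4846 and 54.5), *Rpl9* (10043 and 142.6), *Uqcrc2* (1496 and 26.9), *Ran* (3892 and 84.7) and *Eif4a2* (3238 and 83.3). Over all 1099 symbols with several valid probes the largest ratio was 1243, at *2200002J24Rik* (7631 and 6.14). Besides *2200002J24Rik*, 10 of the genes named here with a level above 33.1 had another valid probe below 33.1, among them *Uqcrc2* from above. These lower levels were 27.6 for *Creb1*, 26.9 for *Uqcrc2*, 24.4 for *Muc20*, 20.4 for *Egfr*, 19.6 for *Adcy6*, 15.5 for *Tead1*, 12.6 for *Dsp*, 3.66 for *H3c7*, 2.96 for *Hoxa3* and 1.21 for *Tapbp*. A difference in level between genes cannot be read as one in transcripts where probes of 1 gene differ as much.

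The order of genes in control BECs was set beside the order on the other arrays by rank alone. Of the 100 brightest symbols in control BECs, 74 were also among the 100 brightest in serum-depleted BECs and 78 in GCDC-treated BECs. For the 500 brightest the shared numbers were 384 and 400. *Krt18* was at rank 1 in control BECs, 7 in serum depletion and 2 in GCDC, and *Krt19* at ranks 23, 81 and 14 in the same order. *Sprr1a* was at rank 17 in control BECs, 126 in serum depletion and 97 in GCDC, and *Hspa8* at 14, 72 and 89. With 1 array per condition the spread of a rank between cultures is unknown.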

How the data were processed

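RNA of mouse intrahepatic BECs was hybridised to 3 one-colour (Cy5) Toray 3D-Gene oligo arrays, of which the control array was described. The authors deposited the scanner output, with the median pixel intensity of 27456 spots on a linear scale, and a table of normalized intensity. In the deposited table the mean intensity of the blanks was subtracted, probes not above 2 SD were left empty, and each array has a median of 25. Recomputed from 2463 of 2736 blanks (those between their 5th and 95th percentiles, mean 55.7, SD 0.813, limit 57.3), validity matched the table for 100% of gene probes, and levels differed by a ratio of 0.957 to 1.03. The number of arrays limits the precision, and p-values were not computed.

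Of 23473 gene probes 20690 had 1 symbol in the platform annotation, of which 20556 were updated through the gene ID in the RefSeq annotation of GRCm38.p6, and 2783 had none. There were 59 gene lists, and 7 families and the olfactory limit were added after levels had been seen. The members and lists were chosen with earlier results of these data known. Lists by symbol pattern also took in some genes of similar name, such as receptor chains among interleukins. Members not found on the array are not analysed here. Named were the 40 brightest symbols, all cholangiocyte markers, the 5 brightest of each list, its not valid members where 5 or fewer, the first 5 written of each cell type list, and the 5 largest ratios between probes where every valid probe exceeded 25. Others were named for their known role or to spell out a count, after their values were seen. Promoters came from RefSeq tables. Steps were tested on simulated data, in which silent probes held only the noise of the blanks. Those data lack the signals seen here in olfactory receptors and negative controls. They therefore check the steps and say nothing on whether a valid level means expression. Alternatives were limits of 5 and 10 SD, other estimates of the background, other choices of probe, members left out, and normexp with an offset of 50. Tools were limma 3.58.1 in R 4.3.3 for normexp, and otherwise pandas 2.3.3, numpy 2.4.6, matplotlib 3.10.9 and scipy 1.17.1 in Python 3.11.15.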

Additional observations from a re-analysis of the deposited data

Results flagged for a closer look

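Of the spots that carry no mouse gene, several classes lay above the limit of 2 SD more often than the blanks, of which 7.46% did. Spots of negative control 1 were above it in 87.5% of 24 cases, and those of the other 3 negative controls in 12.5% to 33.3%. Spots without a probe were above it in 22.5% of 1102 cases. These signals drew attention because they appeared in data outside the gene probes.

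Among the 2783 gene probes without a symbol, which no list includes, 314 exceeded a level of 250 (11.3%, against 12.1% of probes with a symbol), with a maximum of 24526. The second pixel column of the scanner output, named as a background, followed the spot itself, with a median ratio to the spot intensity of 0.975 (quartiles 0.936 and 1.01), and it was not used.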

How the results depend on the processing

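The count of 17423 valid symbols was between 13816 and 17423 under limits of 5 SD and 10 SD, the recomputed levels, the median and MAD of the blanks and their 99th percentile, and 8356 above the 95th percentile of the olfactory receptors, a limit chosen after seeing the data. Valid olfactory receptors (68.1%) were 47.9% at 5 SD and 31.3% at 10 SD, and beside them 40.6% of negative control spots and 22.5% of spots without a probe were above 2 SD. With normexp the levels were 6434 for *Krt7*, 5874 for *Krt19*, 782 for *Epcam* and 21.4 for *Sox9*, each with 1 probe, so that the choice of probe has no bearing on them. Of 59 lists, 29 had a median above that of all symbols, also with the geometric mean of probes. With not valid members left out the number was 26 (laminins, the EGF family and interferon-stimulated genes changed side). It was also 29 with normexp, but normexp keeps the order of signals on 1 array, so this number could hardly change. The medians themselves moved more. Of 58 lists with a valid median, 24 were over 1.5 times higher and 20 over 1.5 times lower with normexp, 8 over 1.5 times higher with not valid members left out, and 2 over 1.5 times lower with the geometric mean. The median of chemokines (4.99) was 15.5 without not valid members and 16.3 with normexp, and that of YAP and TEAD genes (137) was 73.0 with the geometric mean and 74.0 with normexp. Of the 100 brightest symbols 98 remained with the geometric mean. Of the 100, 96 had 1 probe and 76 were protein-coding. A ranking within either subset must keep all of these, so it says nothing on stability. Shares of the other 4 motifs at 200 and 1000 symbols lay within the 95% exact binomial interval of those at 500. That of TATAA near the start (9.09%) did not, at 15.6% and 6.12%, an alternative chosen after seeing the data. The interval treats promoters as independent draws, so it serves as a yardstick only and measures no spread between samples. The sets at 200, 500 and 1000 symbols are nested, so closeness between their shares is partly built in. The blanks, with an SD of 0.813 beside a median gene probe intensity of 84.0 with the blanks at 55.7, limit what can be seen at low levels. No paired analysis was possible because each condition has 1 array.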

Other observations

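Gene families without a list of their own, chosen after their levels had been seen, included further bright genes of secretory epithelia. Of 11 aquaporins 2 exceeded a level of 250, *Aqp5*, the water channel of glands and airways, at 5412, and *Aqp1* at 776, while *Aqp11* was next at 20.3. *Aqp8* was not valid. Of 28 tetraspanins 10 exceeded 250, with *Tspan8* (6943), *Cd63* (3353), *Cd9* (2516) and *Cd81* (2076) highest. Of 14 Ly6 and related genes with a GPI anchor 6 exceeded 250, among them *Ly6c2* (4846, 54.5 on its other probe), *Ly6e* (4305) and *Psca* (3594), and near-identical Ly6 copies may share signal. Of 23 intracellular serpins of clade B 4 exceeded 250, *Serpinb9* (2508), an inhibitor of granzyme B, *Serpinb9b* (1999.8), *Serpinb6b* (1804) and *Serpinb9f* (1584).

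Of 18 cathepsins 7 exceeded 250, led by *Ctsd* (4138), *Ctsl* (2438) and *Ctse* (2262), and *Ctsj* and *Ctss* were not valid. Of 19 aminoacyl-tRNA synthetases 16 exceeded 250, with *Gars* (3888) and *Nars* (2896) highest and *Aars* at 7.62. Of 7 IGF-binding proteins *Igfbp7* alone did, at 5757. Single bright symbols outside all lists were *Pabpc1* (8383), which binds poly(A) tails, the lipid droplet protein *Plin2* (7300.4), *Ybx1* (6871), the uncharacterised *2200002J24Rik* (7631, 6.14 on its other probe) and *Prap1* (5794), an epithelial protein, which was at rank 110 in control BECs, 1214 in serum depletion and 86 in GCDC. The nuclear noncoding RNA *Malat1* had 6047 and 306 on its 2 probes.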
